A study of Gallus gallus with 31 samples.

Results

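Homeobox genes encode transcription factors, and a few related proteins, that carry a homeodomain. The genes described here are those of the expression table whose symbol is that of a HOX cluster gene or whose description contains the word homeobox, other than PITX1, PRRX1 and NKX3-2. The rule matched 21 genes, of which PRRX1 and NKX3-2 were set aside, and 19 of the 564 genes of the table remained. These were 2 genes of the HOX clusters, HOXA3 and HOXA13, and 17 genes elsewhere in the genome. The lines analysed ran by Entrez number and ended in an incomplete line, so any homeobox genes beyond it were not covered. Counts, shares and percentiles below hold for these 564 genes and not for all genes of the chicken. The question was which of them are expressed in the fat of chickens, taken as a group mean of at least 1 FPKM, and whether their levels differ by fat depot and by line.

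Homeodomain proteins bind DNA and set the identity of body regions and organs in the embryo. The HOX genes lie in clusters, and their order along the chromosome follows the order along the body in which they are used, with low numbers at the head end and high numbers at the tail end. Connective and fat tissues of adult vertebrates keep part of this regional code, so that depots from different places in the body hold different sets of homeobox transcripts. Other classes have narrower uses: the iroquois genes act in heart and limb patterning, the TALE genes encode partners of HOX proteins, and LHX3 and POU1F1 act in the pituitary gland.

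The 31 RNA libraries came from flash-frozen fat of male chickens 42 days after hatch, every library labelled as control, with no treatment beyond standard rearing. Abdominal fat and cardiac fat, the fat around the heart, were taken from the Ross line, a commercial broiler line, and from a line that the labels name only as Illinois. The groups were 7 Illinois abdominal and 8 Illinois cardiac libraries, all of a trial named Fall 13, and 8 Ross abdominal and 8 Ross cardiac libraries, with 4 of each from Fall 13 and 4 from Fall 12. The labels do not say which libraries came from the same bird or whether birds were pooled, so p-values rest on the spread of libraries within a group, which may be technical in part.

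Values are FPKM, sequenced fragments divided by the length of the transcript and by the library's mapped total, and 0.001 FPKM is the floor that the table gives to genes with no measured level. How many fragments each library held is unknown. Relative depths read from the steps between low values, with 1 as the typical library, were 1.15 to 1.58 in Illinois abdominal, 0.903 to 2.22 in Illinois cardiac and 0.645 to 1.02 in Ross cardiac libraries. In Ross abdominal libraries they were 0.512 to 0.729, apart from library 1196, whose depth could not be settled. A gene of typical length had about 0.0392 FPKM for 1 fragment at median depth. Library numbers ran in separate blocks by line, depot and trial, so a library batch, if there was one, cannot be told apart from those differences. The fat markers FABP4 and PPARG summed to at least 1971 FPKM in every library. The heart muscle gene CASQ2, which stores calcium, exceeded 10 FPKM in 4 cardiac libraries, at 36.3 in 1107, 27.5 in 1112, 77.2 in 1208 and 18.1 in 1209. The skeletal muscle genes MYOD1 and MYOG summed to at most 6.24 FPKM in Illinois cardiac libraries, with a median of 0.0396. Which muscle gave the CASQ2 was not tested. Differences of homeobox genes between the depots that passed a test are given with and without the libraries with CASQ2 above 10 FPKM. Correlations are given with them only.

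Of the 19 homeobox genes, 5 reached a group mean of 1 FPKM in at least 1 depot and line. HOPX, MEOX2, HOXA3 and PKNOX2 did so in all 4 groups, and BARX1 did so in the abdominal fat of both lines and in neither cardiac group. The counts were therefore 5 in Illinois abdominal, 5 in Ross abdominal, 4 in Illinois cardiac and 4 in Ross cardiac fat. Over all 564 genes of the table, 69.9%, 71.1%, 73.8% and 73.9% reached that mean in the same order of groups, against 26.3% of the homeobox genes in the abdominal and 21.1% in the cardiac groups. The remaining 14 homeobox genes stayed below the threshold in every group. Just inside it was BARX1 with a mean of 1.02 FPKM in Illinois abdominal fat, and just outside was IRX4 with 0.806 FPKM in Illinois cardiac fat. The Ross abdominal count of 5 rested on Fall 12, where BARX1 averaged 3.81 ± 3.75 FPKM (SD, n = 4), against 0.264 ± 0.525 in Fall 13 (SD, n = 4), where the count was 4. The count in Illinois abdominal fat was 4 without library 1092 or 1098, and after upper quartile scaling, and the cardiac counts were still 4 without the libraries with CASQ2 above 10 FPKM.

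**Figure D1:**
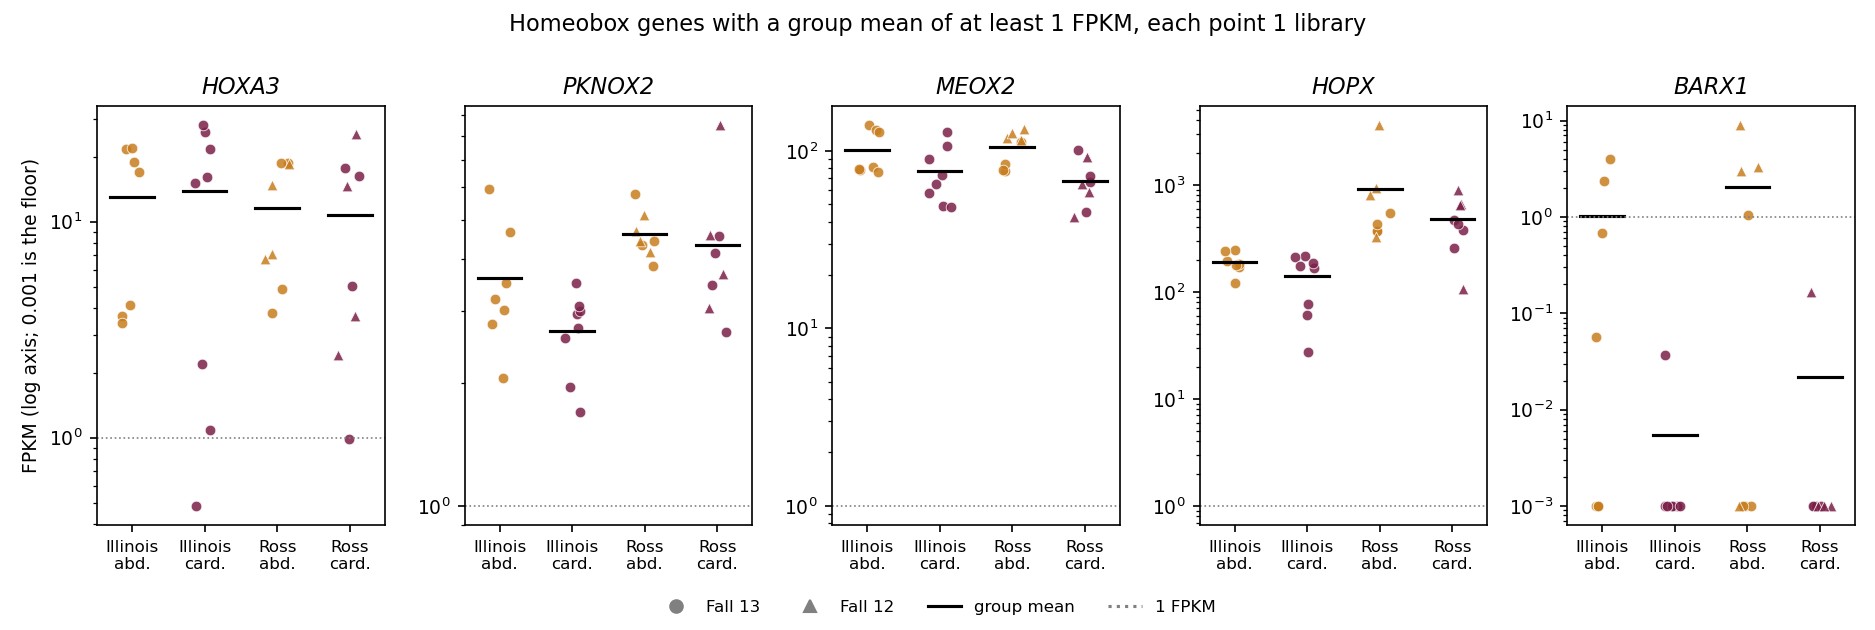
FPKM on a log axis of the 5 homeobox genes that reached a group mean of 1, by line and depot, with each point a library (circles Fall 13, triangles Fall 12) and each bar a group mean. HOPX in Ross abdominal fat reached 3613 FPKM in 1 library, HOXA3 left a gap between 7.06 and 14.6 FPKM in which no library lay, and BARX1 stood at the floor in 14 of 16 cardiac libraries.

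The levels of these 5 genes, per length, spanned a wide range. HOPX held a median place at the 95.6 percentile of the 564 genes within a library and ranked as high as 2 in the table. MEOX2 lay at the 90.8 percentile, HOXA3 at the 61.9 percentile and PKNOX2 at the 39.5 percentile by the same measure. BARX1 lay at the 7.004 percentile, since most libraries listed it at the floor.

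HOXA3 is a gene of the head end of its cluster that in the mouse is needed for the thymus, the parathyroid glands and other derivatives of the pharyngeal arches. It ranged from 3.39 to 21.9 FPKM in Illinois abdominal libraries with a median of 16.9, and from 0.483 to 27.98 FPKM in Illinois cardiac libraries with a median of 15.6. In Ross the range was 3.76 to 18.6 FPKM in abdominal fat with a median of 10.9, and 0.988 to 25.4 FPKM in cardiac fat with a median of 9.84. The ranges of all 4 groups overlapped. The means were 12.9 ± 8.79 (SD, n = 7), 13.8 ± 11.3, 11.6 ± 6.61 and 10.8 ± 8.91 FPKM (SD, n = 8 each) in that order of groups.

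Within each group the HOXA3 values fell apart. No library lay between 7.06 and 14.6 FPKM, with 14 libraries at 0.483 to 7.06 and 17 libraries at 14.6 to 27.98. Low and high libraries occurred in every group, as 3 and 4 in Illinois abdominal, 3 and 5 in Illinois cardiac, 4 and 4 in Ross abdominal and 4 and 4 in Ross cardiac fat. The column headers carry a number that recurs in both depots, and for 8 of 15 such numbers the abdominal and cardiac libraries lay on the same side of the gap. The gap was noticed after the values were seen and was not tested. In the RefSeq annotation of assembly GRCg7b the model of HOXA3 overlaps those of HOXA4, HOXA5 and HOXA6, so its value is uncertain where fragments were shared between these genes.

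HOXA13, the gene at the tail end of the same cluster, acts in the tips of the limbs, the hindgut and the genital region. Its values stayed at or below 0.170 FPKM, far under the threshold for expression. They lay above the floor in 8 of 15 abdominal libraries and in 0 of 16 cardiac libraries. The Illinois abdominal libraries were 1093 with 0.125, 1099 with 0.0824, 1096 with 0.0288 and 1097 with 0.0255 FPKM. The Ross abdominal libraries were 1198 with 0.170, 1195 with 0.141, 1196 with 0.123 and 1202 with 0.0973 FPKM. Each line thus contributed 4 abdominal libraries, and in Ross 3 of them came from Fall 13.

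The numbers of libraries above the floor were compared between depots for all genes with an exact conditional test, two-sided and stratified by line and trial, which was added after the values were seen. It called 8 of 192 testable genes (4.17%), of which 3 were lower in cardiac fat (1.56%), and HOXA13 was among them (exact p = 0.000916, Benjamini-Hochberg adjusted p = 0.0251). The call held in 20 of 34 alternatives, with adjusted p-values from 0.0139 to 0.0685, and was lost without the 4 libraries with CASQ2 above 10 FPKM (adjusted p = 0.0626) and when only values above 0.05 FPKM counted as detected (adjusted p = 0.0569). With 1 library left out it held in 19 of 31 cases, and was lost without Illinois abdominal library 1096, any of the 8 Illinois cardiac libraries, or Ross cardiac library 1204, 1205 or 1207. In Illinois the depot with HOXA13 was the deeper by its median relative depth, 1.45 against 1.07 in cardiac fat. In Ross it was the shallower, with relative depths of 0.512 to 0.729 against 0.645 to 1.02, apart from library 1196, which held HOXA13 and whose depth could not be settled. The part of depth in the result was not tested. Between HOXA3 and HOXA13, 7 other protein-coding HOX genes lie in the RefSeq annotation, and they were not analysed here.

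**Figure D2:**
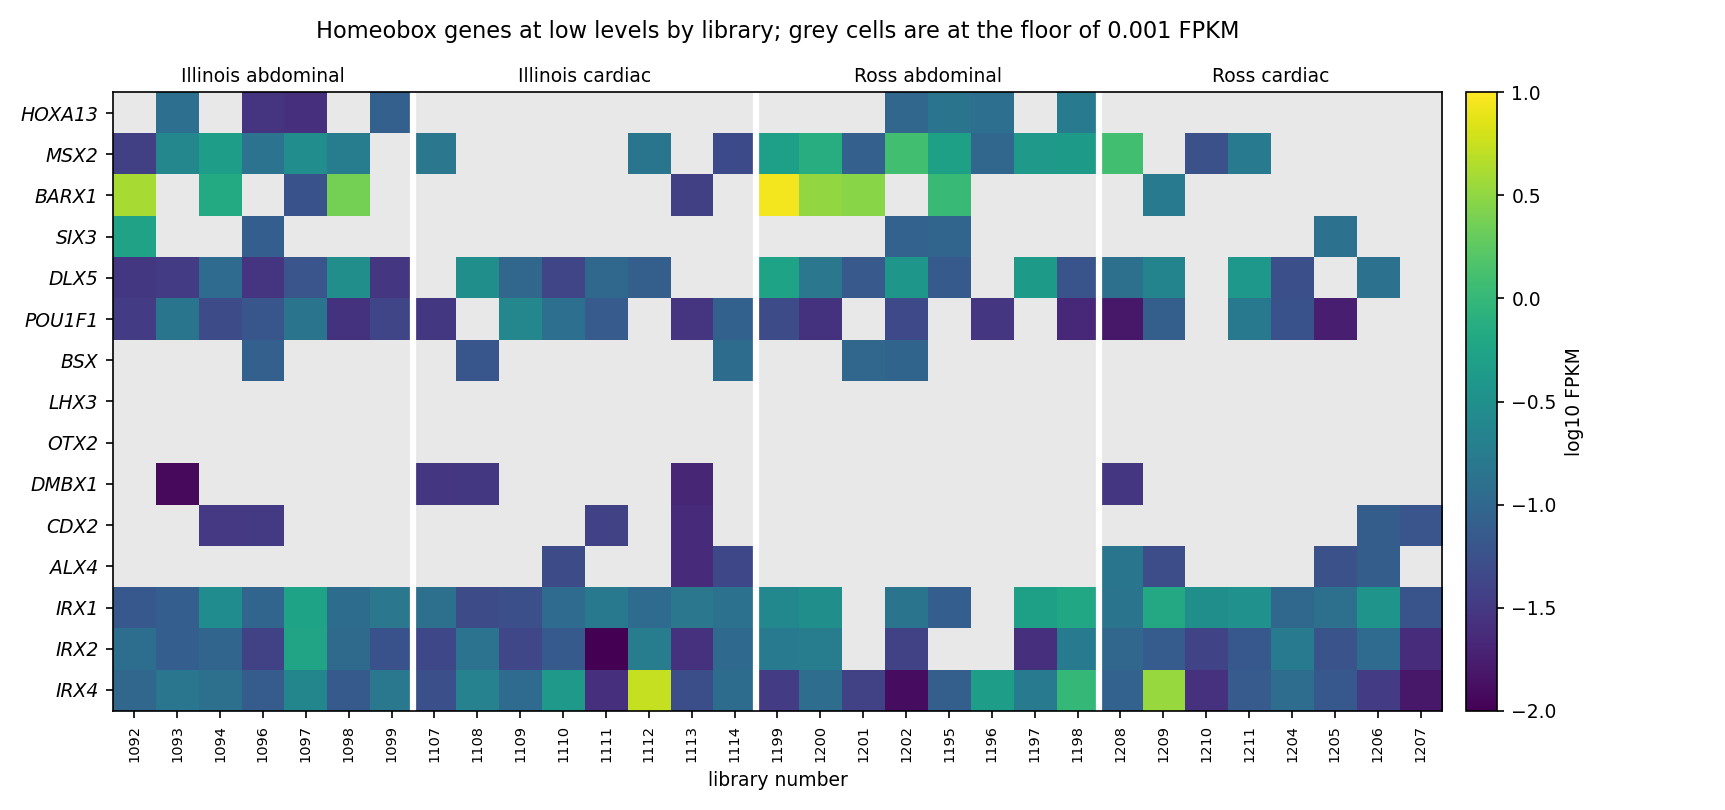
Heat map of log10 FPKM of the 14 homeobox genes below the expression threshold and of BARX1 in the 31 libraries ordered by line, depot and trial, with grey for the floor value of 0.001 FPKM. HOXA13 was grey in all 16 cardiac libraries, ALX4 in all 15 abdominal libraries, and LHX3 and OTX2 in every library.

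PKNOX2 belongs to the TALE class, whose proteins pair with PBX factors and through them with HOX proteins. It ranged from 2.06 to 5.96 FPKM in Illinois abdominal fat with a median of 3.21, and from 1.70 to 3.50 FPKM in Illinois cardiac fat with a median of 2.83. In Ross it ranged from 3.86 to 5.78 FPKM in abdominal fat with a median of 4.43, and from 2.65 to 8.52 FPKM in cardiac fat with a median of 3.91. The groups overlapped, and the value of 8.52 FPKM in library 1208, which also held the most CASQ2, stood above all others. The group means were 3.60 ± 1.31 (SD, n = 7), 2.68 ± 0.598, 4.61 ± 0.601 and 4.33 ± 1.82 FPKM (SD, n = 8 each) in the same order. Cardiac libraries with CASQ2 above 10 FPKM held 4.70 ± 2.67 FPKM (SD, n = 4), and the other cardiac libraries 3.11 ± 0.835 (SD, n = 12).

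MEOX2, a gene of the mesoderm and of blood vessels, acts in the mouse with TCF15 in the endothelium of the heart, where the pair promotes uptake of fatty acids. In Ross abdominal fat of Fall 12 it stood at 118, 127, 116 and 133 FPKM in libraries 1199 to 1202, and in Fall 13 at 77.4, 84.6, 112 and 78.3 FPKM in libraries 1195 to 1198. In Ross cardiac fat it stood at 42.6, 58.5, 65.4 and 92.5 FPKM in the Fall 12 libraries 1208 to 1211, and at 66.8, 101, 45.04 and 72.2 FPKM in the Fall 13 libraries 1204 to 1207. In Fall 12 every abdominal library lay above every cardiac library, as was so for 9.09% of the 440 genes that passed a filter on low values, while in Fall 13 the depots overlapped through library 1205. Illinois abdominal libraries ranged from 75.8 to 139.8 FPKM with a median of 81.4, and Illinois cardiac libraries from 48.2 to 129 FPKM with a median of 69.5, which overlapped.

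The comparison of depots used limma on log2(FPKM + 1) with all 31 libraries in 6 cell means. A filter of at least 1 FPKM in at least 4 libraries left 440 genes, among them 5 of the 19 homeobox genes. In Ross, limma called 127 of the 440 genes between the depots (28.9%), of which 45 were lower in cardiac fat (10.2%), and MEOX2 was among the lower ones. BARX1 was called lower too, but it passed the filter through 6 abdominal and 0 cardiac libraries, so that direction was built into its being tested and its call is no support for a depot difference. Adding 1 FPKM before the logarithm makes the fold changes of low genes too small, and in whole tissue fewer cells of a type and less RNA per cell cannot be told apart.

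MEOX2 averaged 106 ± 22.3 FPKM in Ross abdominal and 67.9 ± 20.5 FPKM in Ross cardiac fat (SD, n = 8 each). The log2 fold change was -0.66 (SE 0.21, limma adjusted p = 0.0187). Over all 440 genes the median was 0.11 in this comparison, 0.09 after scaling to the upper quartile and -0.01 after quantile normalization, and MEOX2 was lower under each scaling. By trial it fell by 0.97 on the log2 scale in Fall 12 (SE 0.30, limma adjusted p = 0.0255), where 22 of 440 genes were lower (5%). In Fall 13 it differed by -0.34 (SE 0.30, limma adjusted p = 0.493), where 16 genes were lower (3.64%). The difference between the trials was 0.63 on the log2 scale and did not pass (SE 0.42, adjusted p = 0.583). In Illinois the means were 102 ± 29.3 (SD, n = 7) and 77.5 ± 28.9 FPKM (SD, n = 8), and they differed by -0.42 on the log2 scale (SE 0.22, limma adjusted p = 0.198). Of the 440 genes limma called 80 in Illinois (18.2%), and none of the 5 tested homeobox genes, of which 0 also had an unadjusted p under 0.05.

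Markers of several cell types moved between the same depots. Of 2 tested heart muscle genes out of 20 listed, MYH7B was called higher in Illinois cardiac fat (2.98, limma adjusted p = 0.0256). It was not called in Ross (1.51, adjusted p = 0.233). CASQ2 was called in neither line. The 4 cardiac libraries with CASQ2 above 10 FPKM held 52.0 ± 7.71 FPKM of MEOX2 (SD, n = 4), the other 12 cardiac libraries 79.6 ± 24.7 (SD, n = 12) and the 15 abdominal libraries 104 ± 24.9 (SD, n = 15). Without the libraries with CASQ2 above 10 FPKM the Ross log2 fold change was -0.50 and was not called (limma adjusted p = 0.106), nor was that of Fall 12 (-0.66, adjusted p = 0.291). Leaving out Ross cardiac library 1206 also ended the Ross call (-0.56, limma adjusted p = 0.0533). The Fall 12 call was lost after quantile normalization (-0.75, adjusted p = 0.0770), with only the libraries compared in the fit (adjusted p = 0.0526), and without library 1200, 1202, 1208 or 1209 (adjusted p = 0.0595, 0.0600, 0.106 and 0.0652).

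Of 14 listed endothelial genes, 5 were in the table and tested. In Ross cardiac fat 2 of the 5 were lower, the transcription factor genes SOX18 (-1.17) and ERG (-0.73), and 0 were higher. CDH5, a junction gene, differed by 0.01 in Ross and was not called (limma adjusted p = 0.988). In Illinois cardiac fat 3 of the 5 were lower, CLDN5 (-1.86), CDH5 (-1.08) and FLT1 (-0.82), and 0 were higher. There 47 of the 440 genes were lower (10.7%). SOX18 (-0.47) and ERG (-0.32) were not called in Illinois, nor were CLDN5 (-0.79) and FLT1 (-0.41) in Ross. No gene of the 5 was thus called in both lines. The median log2 fold change of the 5 was -0.73 in Ross against 0.11 over all genes, and -0.82 in Illinois against -0.01. Their summed level was 172 to 396 FPKM in Illinois abdominal, 83.1 to 244 in Illinois cardiac, 174 to 394 in Ross abdominal and 103 to 305 in Ross cardiac libraries. Of 2 tested fat cell genes out of 16 listed, PPARG was lower in cardiac fat of Ross (-0.79, limma adjusted p = 0.0279) and of Illinois (-1.21, adjusted p = 0.00195), and FABP4 was lower in Illinois (-1.64, adjusted p = 0.00103) and not called in Ross (0.09, adjusted p = 0.866). Across the 31 libraries MEOX2 and FABP4 had an r of 0.68 for deviations from group means, against -0.03 within the 15 abdominal and 0.58 within the 16 cardiac libraries without that centring. In Ross cardiac fat FBLN1 of fibroblasts (1.95), TBX18 of the epicardium (2.30), CHRNA3 of autonomic neurons (1.42) and the immunoglobulin chain gene IGJ (2.33) were called higher by limma (log2 differences). The other tested genes of these lists, FBN1 (1.07), IL2RG (0.68) and PTPRC (-0.06), were not called in Ross. In Illinois cardiac fat, where MEOX2 was not called, limma also called FBLN1 (2.94), TBX18 (2.72) and CHRNA3 (1.34) higher. IGJ (0.77), FBN1 (0.64), IL2RG (0.30) and PTPRC (0.57) were not called in Illinois. In Ross in Fall 12 alone, where MEOX2 was called, CHRNA3 was called (2.72). There FBLN1, TBX18 and IGJ were not (limma adjusted p = 0.0833, 0.102 and 0.0726). Of the 5 endothelial genes 0 were called in Fall 12, and PPARG and FABP4 were not (limma adjusted p = 0.135 and 0.855). The median log2 fold change of the 5 was still -0.70 there, against 0.05 over all genes. In Fall 13, where MEOX2 was not called, 1 of the 5, SOX18, was called lower (-1.40, limma adjusted p = 0.0129). The median of the 5 in Fall 13 was -0.76, against 0.16 over all genes. The part of these cell types in the result for MEOX2 was not tested.

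BARX1 acts in the mesenchyme of the stomach and in the face of the embryo. In Ross abdominal fat of Fall 12 it stood at 8.97, 3.30 and 2.96 FPKM in libraries 1199, 1200 and 1201 and at the floor in 1202. In the Fall 13 trial it stood at 1.05 FPKM in library 1195 and at the floor in the other 3 Ross abdominal libraries. In Illinois abdominal fat it reached 4.02 FPKM in library 1092, 2.37 in 1098, 0.679 in 1094 and 0.0570 in 1097, with 3 libraries at the floor. Abdominal libraries of both lines thus ran from the floor to above 1 FPKM, with 1 FPKM or more in 6 of 15. Among 16 cardiac libraries it rose above the floor in 2, at 0.0369 FPKM in 1113 and 0.167 FPKM in 1209.

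BARX1 averaged 2.04 ± 3.12 FPKM in Ross abdominal fat (SD, n = 8), and 1.05 ± 1.48 without library 1199 (SD, n = 7). The cardiac mean was 0.0218 FPKM, and the difference was -1.03 on the log2(FPKM + 1) scale (SE 0.34, limma adjusted p = 0.0227). The call was lost without library 1195 (-0.90, adjusted p = 0.0567), without library 1199 (-0.78, adjusted p = 0.0690) and without the libraries with CASQ2 above 10 FPKM (-1.05, adjusted p = 0.0587). In Fall 12 alone BARX1 fell by 1.80 (SE 0.48, limma adjusted p = 0.0112), and without library 1199 the difference was -1.31 (adjusted p = 0.0708, not called). The Fall 12 call was also lost with only the libraries compared in the fit (adjusted p = 0.114) and without the libraries with CASQ2 above 10 FPKM (-1.85, adjusted p = 0.0894). In Fall 13 alone it was not called (adjusted p = 0.807), with all 4 cardiac libraries at the floor. The depot differences of the trials differed by 1.54 (SE 0.68, limma adjusted p = 0.272), with 4 of 440 genes called in that test (0.909%) and 0 of the 5 homeobox genes. Without library 1202 that difference was 2.15 and was called (limma adjusted p = 0.0362). Since BARX1 passed the filter through abdominal libraries alone, that call is no support either. In Illinois the abdominal mean was 1.02 ± 1.58 FPKM (SD, n = 7) and the difference did not pass (-0.69, SE 0.35, adjusted p = 0.194).

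Within Ross abdominal fat BARX1 was called between the trials, by -1.59 on the log2(FPKM + 1) scale in Fall 13 relative to Fall 12 (SE 0.48, limma adjusted p = 0.0153). It was the 1 homeobox gene of 5 called there. Of the 6 libraries through which BARX1 passed the filter, 3 were Ross abdominal libraries of Fall 12 and 1 was of Fall 13. Without those of Fall 12 it would not have been tested, so its call is no support for a trial difference. Of the 440 genes 108 were called (24.5%), 94 of them lower in Fall 13 (21.4%). The median of all genes was -0.29 in this comparison, 0.00 after upper quartile scaling and 0.02 after quantile normalization, and BARX1 was called lower under each. The call was lost without library 1199 (-1.10, adjusted p = 0.0916) and with only the libraries compared in the fit (adjusted p = 0.0944). Marker genes of other cells moved with it. TBX18, the 1 gene of 10 listed for epicardium and mesothelium that the table held, stood at 0.979 to 8.99 FPKM in Fall 12 and at 0.182 to 0.444 in Fall 13. FBLN1 and FBN1, the 2 of 13 listed fibroblast genes, summed to 40.8 to 394 FPKM in Fall 12 and to 8.21 to 27.98 in Fall 13. Their part in the result was not tested. In Ross cardiac fat 47 of 440 genes were called between the trials (10.7%), but by limma 0 of the 5 homeobox genes, of which 0 had an unadjusted p under 0.05.

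The gene whose pattern over the 31 libraries was most like that of BARX1 was NKX3-2, with a Pearson r of 0.91 on log2(FPKM + 1). It was 0.86 for deviations from group means, 0.89 in the 15 abdominal libraries and -0.29 in the 16 cardiac libraries, where both genes were low. Spearman's rho over all libraries was 0.51. The libraries with the most BARX1 were also those with the most NKX3-2. The latter reached 9.48, 5.25 and 2.39 FPKM in Illinois libraries 1092, 1098 and 1094, 6.33, 11.9 and 11.9 FPKM in Ross libraries 1199, 1200 and 1201, and 6.002 FPKM in 1195. WNT2B (r = 0.78) and SPARC (r = 0.69) followed. These values describe the 31 libraries, which share depth and tissue makeup between genes.

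**Figure D3:**
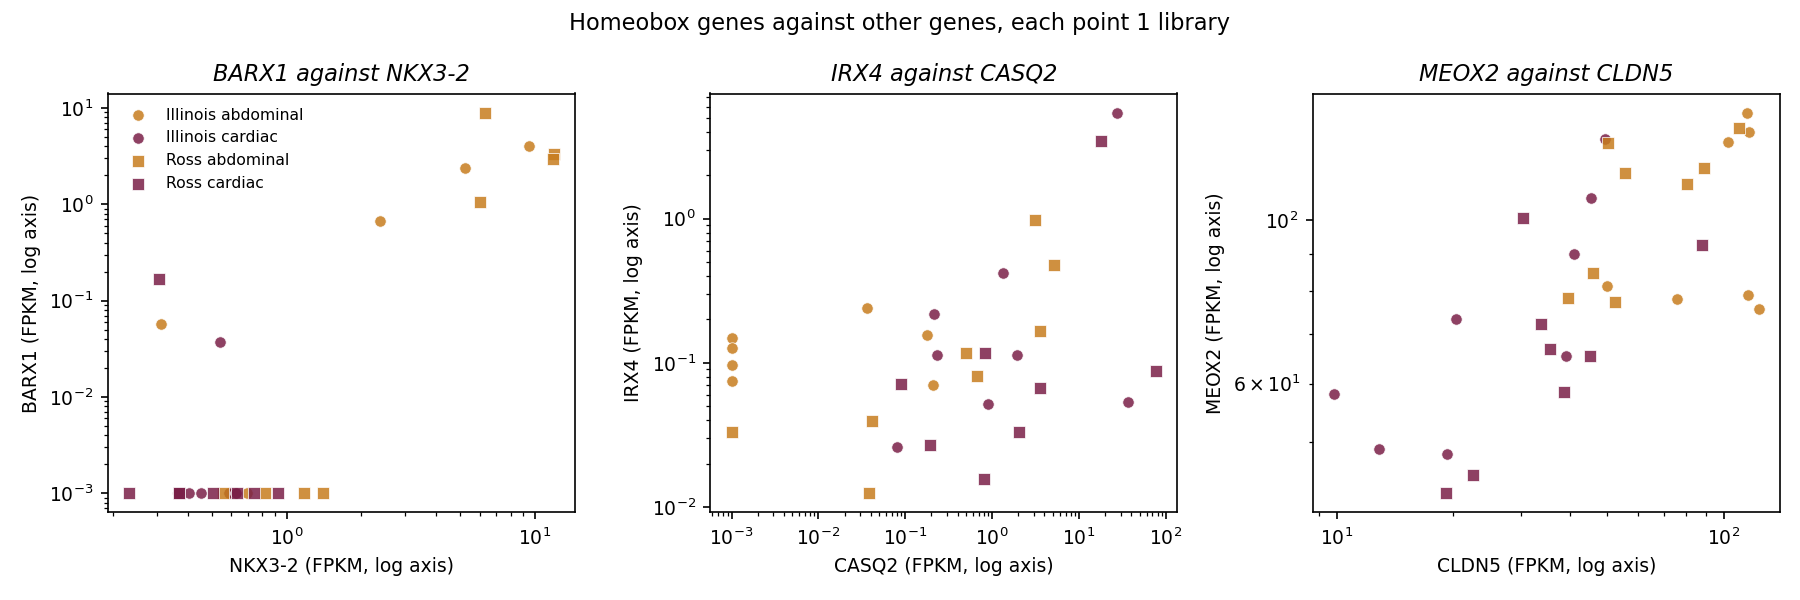
FPKM on log axes of BARX1 against NKX3-2, IRX4 against the heart muscle gene CASQ2, and MEOX2 against the endothelial gene CLDN5, with each point 1 of the 31 libraries (orange abdominal, purple cardiac, circles Illinois, squares Ross). Libraries with BARX1 of 1 FPKM or more held 5.25 to 11.9 FPKM of NKX3-2, and the 2 libraries with IRX4 of 1 FPKM or more both held CASQ2 above 10 FPKM.

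HOPX encodes a small homeodomain protein that does not bind DNA and acts in the heart with the factor SRF. Among the homeobox genes it was the most abundant per length in every group. It ranged from 122 to 247 FPKM in Illinois abdominal fat with a median of 182, and from 27.2 to 215 FPKM in Illinois cardiac fat with a median of 171. In Ross abdominal fat it stood at 369, 367, 550 and 433 FPKM in the Fall 13 libraries 1195 to 1198, and at 324, 928, 3613 and 807 FPKM in the Fall 12 libraries 1199 to 1202. In Ross cardiac fat it stood at 467, 375, 255 and 429 FPKM in the Fall 13 libraries 1204 to 1207, and at 107, 658, 896 and 647 FPKM in the Fall 12 libraries 1208 to 1211. Every Ross library of Fall 13 lay above every Illinois library of the same depot. The Ross Fall 12 libraries were spread more widely than those of Fall 13 in both depots.

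The lines were compared within Fall 13, the trial that both share. HOPX averaged 191 ± 43.0 FPKM in Illinois (SD, n = 7) and 430 ± 85.5 FPKM in Ross abdominal fat (SD, n = 4), and the groups did not overlap, as was so with Ross higher for 2.95% of the 440 genes. The log2 fold change was 1.18 and did not pass (SE 0.56, limma adjusted p = 0.144, unadjusted p = 0.0432). In cardiac fat it averaged 140 ± 73.9 FPKM in Illinois (SD, n = 8) and 382 ± 92.3 FPKM in Ross (SD, n = 4), again without overlap, as for 5% of the genes with Ross higher. The log2 fold change there was 1.68 and did not pass either (SE 0.54, limma adjusted p = 0.0629, unadjusted p = 0.00451). Limma called 68 genes between the lines in abdominal fat (15.5%) and 24 in cardiac fat (5.45%), and 0 of the 5 tested homeobox genes in either. HOPX was the 1 of 5 with an unadjusted p under 0.05 in each.

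The line difference of HOPX in abdominal fat was called in 3 of 41 alternatives. These were the fit of only the Fall 13 libraries of that depot (1.18, limma adjusted p = 0.00804), quantile normalization (1.60, adjusted p = 0.0354) and the fit without the libraries with CASQ2 above 10 FPKM (1.18, adjusted p = 0.0390). In cardiac fat it was called without library 1111 (adjusted p = 0.0488), without 1201 (adjusted p = 0.0426) or without 1208 (adjusted p = 0.0343). Without the libraries with CASQ2 above 10 FPKM the cardiac difference was 1.18, the lowest of the alternatives, and was not called. Adjusted p-values over 41 alternatives ran from 0.00804 to 0.282 in abdominal and from 0.0343 to 0.137 in cardiac fat, and Ross was the higher line in all of them. Within Fall 13 the settled relative depths of the lines overlapped in neither depot. In abdominal fat they were 1.15 to 1.58 in Illinois and 0.512 to 0.729 in Ross. The depth of Ross abdominal library 1196 was not settled. In cardiac fat they were 0.903 to 2.22 in Illinois and 0.645 to 0.895 in Ross. Depth and line thus cannot be told apart in either depot.

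Between the depots HOPX did not pass in either line. The log2 fold change was -0.69 in Illinois (SE 0.46, limma adjusted p = 0.322) and -0.65 in Ross (SE 0.44, adjusted p = 0.303). Between the trials in Ross abdominal fat it differed by -1.19 and did not pass (SE 0.63, limma adjusted p = 0.175). The Ross abdominal mean of 924 ± 1109 FPKM (SD, n = 8) became 540 ± 238 without library 1201 (SD, n = 7), against 479 ± 249 FPKM in cardiac fat (SD, n = 8). Of the 5 lowest libraries, 1112 with 27.2, 1107 with 60.3 and 1208 with 107 FPKM were cardiac libraries with CASQ2 above 10 FPKM, and without the libraries of that kind the differences were -0.19 and -0.27. The most similar genes over the 31 libraries were the helicase gene RECQL (r = 0.80), the T-box gene TBX3 (r = 0.79) and BCL2L1 (r = 0.76), which protects cells from apoptosis. With FABP4, the fatty acid carrier of fat cells, HOPX had an r of 0.88 in the 16 cardiac libraries and of -0.53 in the 15 abdominal libraries, where line and trial differ as well. For deviations from group means over the 31 libraries that r was 0.78. Libraries 1112, 1107 and 1208 also held the least FABP4, at 1959, 3893 and 4865 FPKM, and r was not computed without them.

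**Figure D4:**
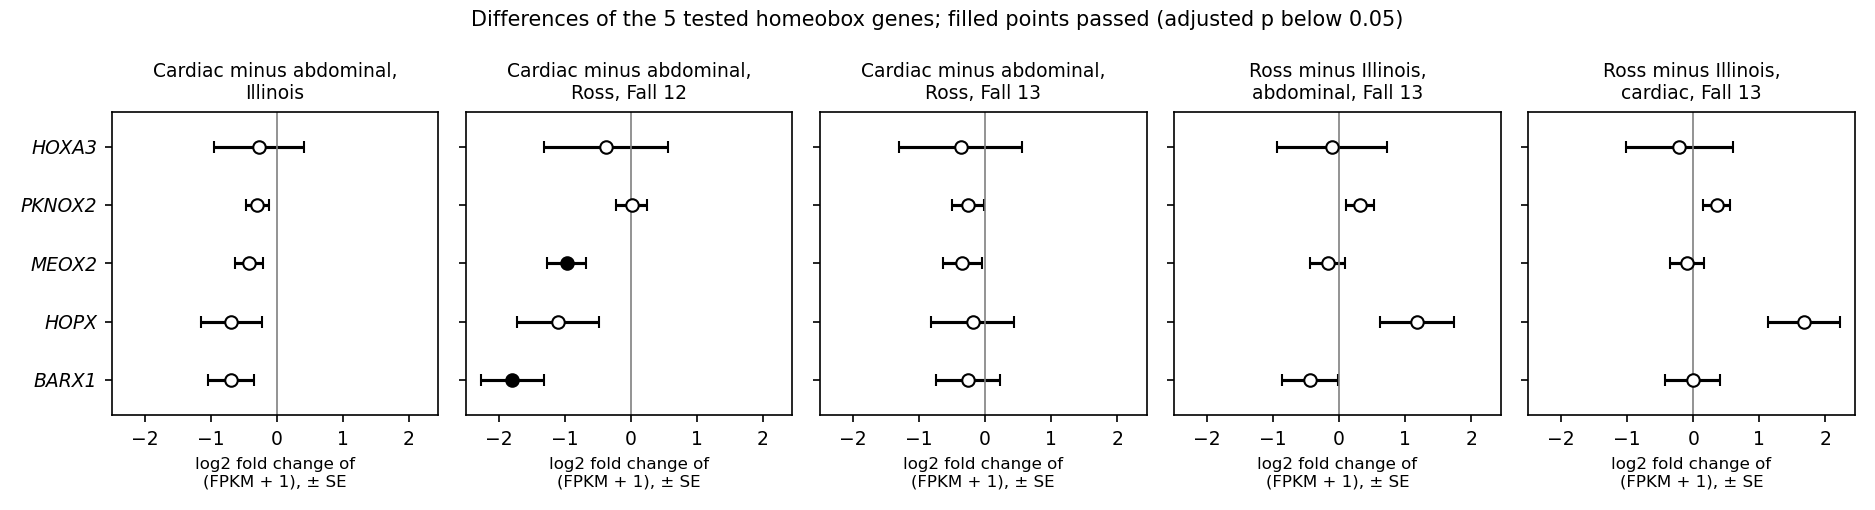
Log2 fold change on the log2(FPKM + 1) scale with its standard error for the 5 tested homeobox genes in 5 comparisons, with filled points for those called by limma at an adjusted p below 0.05. MEOX2 was called lower in Ross cardiac fat, as was BARX1, which passed the filter through its abdominal libraries alone, and HOPX between the lines lay at 1.18 and 1.68 without a call.

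The other tested homeobox genes were not called in any of the 10 comparisons. PKNOX2 differed between the depots by -0.29 in Illinois (SE 0.18, limma adjusted p = 0.277) and by -0.12 in Ross (SE 0.17, adjusted p = 0.646), and was called lower in Illinois cardiac fat after quantile normalization alone (-0.62, adjusted p = 0.0122). Between the lines in Fall 13 it was 0.32 higher in Ross abdominal and 0.35 higher in Ross cardiac fat on the log2 scale (limma adjusted p = 0.328 and 0.326). HOXA3 had log2 fold changes of -0.27 in Illinois and -0.38 in Ross cardiac fat (limma adjusted p = 0.828 and 0.724), with standard errors of 0.69 and 0.66 that exceeded them. The Illinois value changed sign without library 1107 (0.11) or 1108 (0.04). The test of whether the depot difference differs between the lines in Fall 13 called 14 of 440 genes (3.18%), but by limma 0 of the 5 homeobox genes, the lowest adjusted p being 0.731 for BARX1, and 0 had an unadjusted p under 0.05.

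The 10 pairs among the 5 expressed homeobox genes had Pearson r from -0.07 to 0.39 on log2(FPKM + 1) over the 31 libraries. MEOX2 was most like NR3C2, the mineralocorticoid receptor gene (r = 0.77), and the endothelial junction gene CLDN5 (r = 0.72, and 0.70 for deviations from group means). With CLDN5 the r was 0.37 in the 15 abdominal and 0.65 in the 16 cardiac libraries, those with CASQ2 above 10 FPKM included. With CDH5 it was 0.59 over the 31 libraries. PKNOX2 was most like SOD2, a mitochondrial superoxide dismutase gene (r = 0.71), and HOXA3 had no close partner, the highest being SMC3 of the cohesin complex (r = 0.49).

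Among the 14 homeobox genes below the threshold, IRX4, IRX2 and IRX1 form 1 iroquois cluster and are consecutive protein-coding genes in the RefSeq annotation. IRX4, a gene of ventricular heart muscle in the chick, was the 1 low gene above the floor in all 31 libraries. It lay between 0.0124 and 0.985 FPKM in the 15 abdominal libraries, and in 14 of 16 cardiac libraries it lay at or below 0.417 FPKM. The 2 exceptions were Illinois library 1112 with 5.45 FPKM and Ross library 1209 with 3.47 FPKM, both with CASQ2 above 10 FPKM. The 2 other libraries with that much CASQ2 held little IRX4, 0.0538 FPKM in 1107 and 0.0876 FPKM in 1208, although their CASQ2 was the higher. Without library 1112 the Illinois cardiac mean moved from 0.806 ± 1.88 (SD, n = 8) to 0.142 ± 0.137 FPKM (SD, n = 7), and without 1209 the Ross cardiac mean moved from 0.486 ± 1.21 to 0.0598 ± 0.0366 FPKM. Its neighbours stayed below 1 FPKM in these libraries. IRX1 had its highest value, 0.652 FPKM, in library 1209 and held 0.113 FPKM in 1112. IRX2 had its highest cardiac value, 0.187 FPKM, in library 1112 and held 0.0739 FPKM in 1209, with its overall highest, 0.559 FPKM, in the abdominal library 1097.

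MSX2, a target of BMP signals in the skull and limb, was the other low gene that reached 1 FPKM in a library. It lay above the floor in 6 of 7 Illinois and 8 of 8 Ross abdominal libraries, and in 3 of 8 Illinois and 3 of 8 Ross cardiac libraries. The highest abdominal values were 1.24 FPKM in library 1202 and 0.737 in 1200, and cardiac library 1208 held 1.25 FPKM. The other 15 cardiac libraries stayed at or below 0.178 FPKM, and all 4 Ross cardiac libraries of Fall 13 were at the floor. The means were 0.196 ± 0.160 FPKM in Illinois abdominal (SD, n = 7), 0.501 ± 0.370 in Ross abdominal, 0.0445 ± 0.0682 in Illinois cardiac and 0.186 ± 0.434 in Ross cardiac fat (SD, n = 8 each). Without library 1208 the Ross cardiac mean was 0.0342 ± 0.0668 FPKM (SD, n = 7).

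MSX2 was, with HOXA13, the second homeobox gene that the exact conditional test called as detected less often in cardiac fat (exact p = 0.0017, adjusted p = 0.0408). The call held in 18 of 34 alternatives, with adjusted p-values from 0.00845 to 0.107, and in 15 of 31 cases in which 1 library was left out. The libraries without which it was lost were 1094, 1096 and 1098 of Illinois abdominal, 1108 to 1111 and 1113 of Illinois cardiac, 1195 to 1198 of Ross abdominal, and 1204, 1205, 1207 and 1209 of Ross cardiac fat. ALX4, a gene of the limb and skull, had the opposite pattern, above the floor in 0 of 15 abdominal and in 7 of 16 cardiac libraries, 3 of Illinois and 4 of Ross. It rested on 1 fragment in 6 of these 7 libraries and on 3 fragments in library 1208, whose value of 0.147 FPKM was its highest, and it was not called (exact p = 0.00918, adjusted p = 0.124). BARX1 was above the floor in 8 of 15 abdominal and 2 of 16 cardiac libraries and was not called by this test (exact p = 0.0214, adjusted p = 0.196), except in 1 of 34 alternatives, with detection above 0.05 FPKM (adjusted p = 0.0481).

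The remaining low genes showed no called difference between the depots. DLX5, of bone and face, was above the floor in 14 of 15 abdominal and 10 of 16 cardiac libraries (exact p = 0.0857, adjusted p = 0.422) with at most 0.547 FPKM. POU1F1, a pituitary factor, was above it in 12 and 11 libraries with at most 0.246 FPKM. The forebrain and eye gene SIX3 was above it in 4 and 1 libraries, with its highest value, 0.542 FPKM, in library 1092. CDX2, which sets intestinal identity, was above it in 2 and 4 libraries with at most 0.0774 FPKM and 1 fragment in each. The brain genes BSX and DMBX1 were each above it in 5 of 31 libraries, at no more than 0.114 and 0.0307 FPKM. LHX3 of the pituitary and OTX2 of the forebrain and midbrain were not detectable in any of the 31 libraries at this depth.

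Genes that act on HOX expression were looked for in the same table. Of 19 listed genes of retinoic acid signalling 3 were present and 2 tested, and of 27 listed Polycomb and trithorax genes 0 were in the part of the table analysed here. ALDH1A1, which makes retinoic acid, was higher in cardiac fat of both lines, by 1.98 on the log2 scale in Illinois (limma adjusted p = 0.00141) and by 1.17 in Ross (adjusted p = 0.0368). By trial the Ross difference was 2.11 in Fall 13 (limma adjusted p = 0.0144) and 0.24 in Fall 12, where it was not called (adjusted p = 0.821). In Ross abdominal fat ALDH1A1 fell by 2.96 from Fall 12 to Fall 13 (limma adjusted p = 0.00067). In that comparison BARX1 was also lower, as were 94 of the 440 genes (21.4%). RARA, a retinoic acid receptor gene, was not called in these comparisons. HOXA3 was not called in any of them either.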

How the data were processed

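Per the submitters' processing notes, the authors used Bowtie, TopHat and Cufflinks, of which the versions, the build and the gene models are not given in the sources. The table they deposited holds 1 FPKM value per gene and library. The unit was taken from Cufflinks and the range of the values, since the headers do not name it. FPKM divides by the library total, so a few abundant genes lower all others. Per the labels, polyA RNA was made into stranded libraries.

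Of 567 lines analysed, sorted by Entrez number, 566 were complete. After 2 duplicate lines were dropped, 564 genes remained, and 0 columns were unmatched. The floor of 0.001 stood in 2279 cells. Low values of 31 genes gave relative depths, with which 96.0% of 404 values came within 0.05 of a whole fragment, against 32.6% with depths shuffled 20 times. The depths were chosen on these same values, so that gap was favoured in advance and is no independent check of them. All 19 homeobox genes were found by Entrez number with the same symbol in RefSeq GRCg7b, used for names and neighbours only. No sequences are shown.

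Log2(FPKM + 1) was fitted with limma 3.58.1 in R 4.3.3 (6 cell means, mean-variance trend, robust moderation). Genes that reached 1 FPKM in 4 or more libraries were tested, two-sided, with Benjamini-Hochberg adjustment over 440 genes, and called at an adjusted p below 0.05. The limma fit of Ross cardiac minus abdominal was tried on simulated data, with normal noise and levels raised above those measured. The exact test, the depths and the other comparisons were not tried in this way. All 19 genes are accounted for. By the rule for named genes, those with a group mean of at least 1 FPKM or a call are given with values, the others in groups. Other named libraries and genes were picked after their values were seen. The genes, lists and tests were chosen with earlier results of these data known. Alternatives were another pseudocount, filters, scalings, a trial term, other libraries in the fit, plain moderation and leaving out libraries.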

Additional observations from a re-analysis of the deposited data

Results flagged for a closer look

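In 4 cases the highest library stood far from the others of its group by Dixon's gap test, applied to 31 groups of 4 to 8 libraries, by gene, line, depot and trial, in which a library reached 1 FPKM. Chance flags about 1 group in 20 where values are normally distributed. Raw FPKM in groups picked for a library at 1 FPKM or more need not be, so the number of flags cannot be set against that rate. BARX1 stood at 1.05 FPKM in Ross abdominal library 1195 of Fall 13 and at the floor of 0.001 in the other 3. With those 3 tied, the gap was the whole range, so any single detected library would have been flagged. IRX4 stood at 5.45 FPKM in Illinois cardiac library 1112, where the next of 8 libraries held 0.417 FPKM. The same gene stood at 3.47 FPKM in Ross cardiac library 1209 of Fall 12, where the next of 4 held 0.0876 FPKM. MSX2 stood at 1.25 FPKM in Ross cardiac library 1208 of Fall 12, and the next of 4 held 0.178 FPKM. Libraries 1112, 1209 and 1208 are among the 4 cardiac libraries with CASQ2 above 10 FPKM, while 1195 is not. The part of heart muscle in the values of IRX4 and MSX2 was not tested.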

How the results depend on the processing

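Of 888 alternative values of 22 single-gene results, 860 kept direction and call, 17 lost the call, 9 gained it and 2 changed sign. The latter were HOXA3 between the Illinois depots, which ran from -0.51 to 0.11 when 1 library was left out. Most of the 22 results were not calls to begin with, and most alternatives left out 1 library. All lost calls were of BARX1 and MEOX2. Between the Ross depots these held in 37 of 40 and 39 of 41 alternatives, and in Fall 12 in 36 of 39 and 33 of 40. The BARX1 call between the trials held in 37 of 39. The number of homeobox genes called between the Ross depots was 2, among them BARX1, whose call is no support for a depot difference. The count became 4 without the filter and 1 when 1 FPKM was required in 7 libraries (BARX1 was then not tested). It was 0 without the libraries with CASQ2 above 10 FPKM and 1 to 2 when 1 library was left out. Added without the filter were MSX2 (-0.36 on the log2(FPKM + 1) scale) and HOXA13 (-0.09), which stood at the floor in all 16 cardiac libraries. The counts in this paragraph lack the share of all genes called under the same setting, so they describe stability only. Within Fall 12 the count of 2 became 1 with the 7-library filter, 1 after quantile normalization, 0 when only the libraries compared entered the fit, 0 without the CASQ2 libraries and 1 to 2 with 1 library left out. Within Fall 13 the count of 0 became 1 without the filter. Between the Illinois depots 0 became 1 after quantile normalization. Between the lines in abdominal fat 0 became 1 after quantile normalization, with only the libraries compared and without the CASQ2 libraries, and in cardiac fat 0 to 1 with 1 library left out. Between the trials in Ross abdominal fat 1 became 2 without the filter, 0 with the 7-library filter, 0 with only the libraries compared, 2 without the CASQ2 libraries and 0 to 1 with 1 library left out. The test of depot by trial in Ross ran from 0 to 1 with 1 library left out. The exact test of detection called 2, 1 without the CASQ2 libraries and 0 to 2 with 1 library left out. The cause of these changes was not tested. The counts of expressed genes stayed between 4 and 5 with 1 library left out. The additive trial term gives no value for comparisons within or between trials.

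The second number in the column headers recurs in both depots for 15 pairs of libraries, but the labels do not say what it marks. Each abdominal library shares it with a cardiac library of its own line and trial. Deviations of such pairs correlated from -0.11 to 0.439 with a median of 0.123. Of the 15, 9 were over 0.1, and 4 pairs were best matches in both directions. These values do not settle whether the number marks a bird, and the main fit did not use it. A fit with the number as a replicate block was chosen after seeing the data (consensus correlation 0.157). With it limma called 143 rather than 127 genes between the Ross depots and 99 rather than 80 between the Illinois depots. The counts of homeobox genes called stayed 2 and 0. Over the lines in Fall 13 the depot difference went from 14 to 35 genes, and between the trials in Ross from 4 to 8, with 0 homeobox genes in each. Of 10 genes with estimated fragments, ALX4, DMBX1, BSX and CDX2 had the fewest, with at most 3, 3, 2 and 1 in a library of settled depth. All their values came within 0.1 of a whole fragment. The estimate for IRX2 reached 123 but is less sure, since 85.7% of its values did. For HOXA13 57.1% of 7 values did, so its fragments could not be settled.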
